A study of Homo sapiens with 12 samples.

Results

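The 10 genes described here, CD34, KIT, CD38, FLT3, IL3RA, CD33, CLEC12A, CD47, HAVCR2 and CD96, encode surface proteins that mark stem and progenitor cells of the blood or serve as antibody targets in acute myeloid leukaemia (AML). They were taken as a fixed list of names, chosen with earlier results of these data known, from the 57865 genes to which the transcript counts were summed. All 10 were among the 15424 genes with enough counts to be tested.

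RNA was measured in 4 human AML cell lines, named KG-1a, MOLM-14, MV4-11 and OCI-AML3. Cells were kept for 12 h with DMSO as the control, with 10 µM pioglitazone or with 10 µM darglitazone, and each line gave 1 library per treatment, 12 libraries in all. No label states a repeat culture, so p-values measure only the spread between these libraries, which may be technical. A contrast between lines compares 3 libraries of 1 line with 3 of another, and a contrast between treatments uses the lines as its 4 replicates. As background, MOLM-14 and MV4-11 are known to carry a KMT2A fusion and an activating duplication in FLT3, OCI-AML3 a mutant NPM1, and KG-1a is an undifferentiated subline of KG-1. Each stands for the leukaemia of a single patient and not for a class of AML.

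In normal marrow, CD34 and KIT mark stem and progenitor cells, and CD38 appears as progenitors mature, so that leukaemic stem cells are often sought among CD34+CD38- cells. FLT3, KIT and the interleukin 3 receptor pass growth signals to these cells, while CD33 and CLEC12A are carried by cells committed to the myeloid line. CD47, HAVCR2 and CD96 interact with partner proteins on phagocytes, T cells and other cells, and antibodies to them have been studied in AML. Pioglitazone and darglitazone are thiazolidinediones, a class that activates the nuclear receptor PPARγ.

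The libraries differed strongly in depth. Total estimated counts ran from 1.1 M in the OCI-AML3 pioglitazone library to 64.24 M in the OCI-AML3 DMSO library, with a median of 11.27 M. The floor set at 3 counts stood for 0.0467 to 2.74 CPM (counts scaled to library size), and such floors cover counting error only. An entry in the ribosomal DNA, FP671120.3, held 23.5% of the counts of the KG-1a pioglitazone library and 6.17% of those of the OCI-AML3 pioglitazone library, and at most 0.542% elsewhere. All 10 myeloid markers of the list had counts in every line, but their summed level was 152 to 342 TPM (counts scaled by transcript length and library) in KG-1a, against 989 to 4230 TPM in the other lines. KG-1a was also higher in T and NK cell markers, at 214 to 325 TPM in sum and led by NKG7, against 49.3 to 177 TPM elsewhere, where CD4 led. The same held for B cell markers, at 36.3 to 64.1 TPM and led by CD79B, against 1.98 to 14.1 TPM elsewhere. Erythroid and megakaryocyte markers stood at 70.9 to 127 TPM in KG-1a, led by ITGA2B at 89.1 TPM, against 1.47 to 7.5 TPM elsewhere. In KG-1a 6 of these 10 markers had 0 counts in all 3 libraries, and 2 had a mean over 1 TPM. Of the 8 B cell markers, 3 had a mean over 1 TPM there. The higher sums of KG-1a were thus not particular to T and NK cell markers, but those of these other lists rested on few genes.

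Genes specific to 1 line also had low counts in libraries of other lines. In OCI-AML3 with pioglitazone, 77 genes specific to KG-1a had a median level of 1.96% of that in KG-1a. In MV4-11 with darglitazone the value was 0.673% (71 genes), and in the other 7 libraries that were not of KG-1a it was 0.111% to 0.321%. In KG-1a with darglitazone, 6 genes specific to MV4-11 had a median of 4.1% of their own line's level. Whether such counts are reads of the other line or low expression was not tested. The level a member would have at these shares is given beside members that are low in 1 line and high in another. In bulk RNA, fewer cells with a transcript and less of it per cell cannot be told apart.

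Levels of different genes are compared as TPM. By the mean of a line's 3 libraries, the antigen with the highest level was FLT3 in MOLM-14, CD33 in OCI-AML3 and CD34 in KG-1a. In MV4-11 CD33 and FLT3 stood side by side, each above 96.5% of protein-coding genes. The lead genes of MOLM-14 and OCI-AML3 lay above 95% and 91.3% of protein-coding genes, and CD34 in KG-1a above 98.5%, with CD96 next at 96.3%. The order within a line was not the same in every library: in OCI-AML3 with pioglitazone FLT3 had 46.5 TPM and CD33 32.2 TPM.

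**Figure D1:**
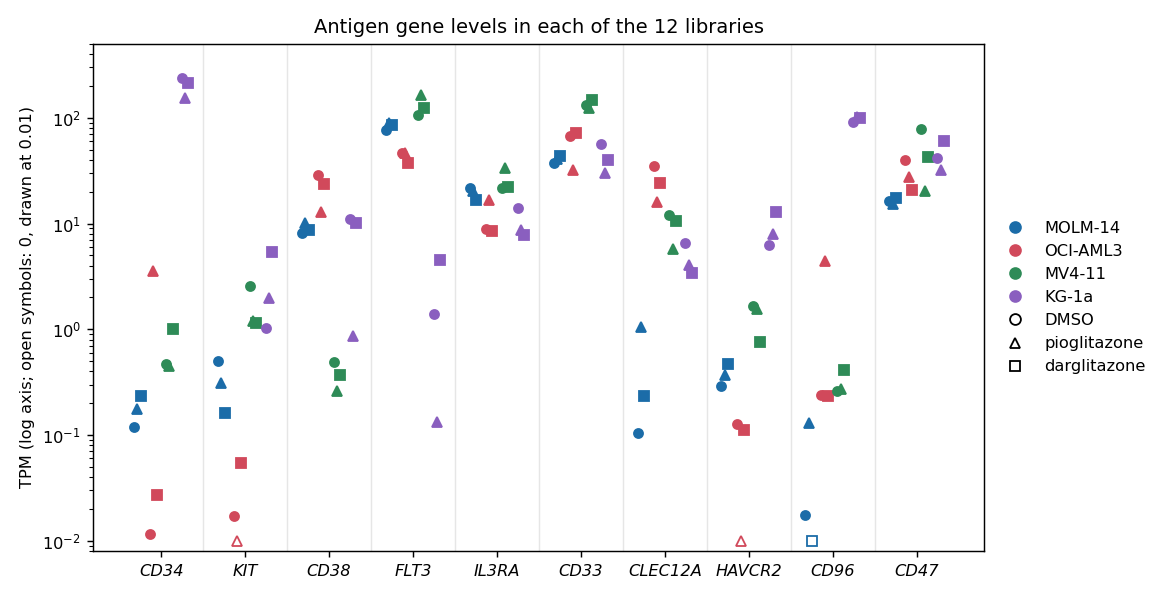
Level of each antigen gene in each of the 12 libraries, in TPM on a log axis, with colour for the cell line, symbol shape for the treatment and open symbols at 0.01 for libraries at 0. CD34 and CD96 are at 154 to 237 and 92.2 to 102 TPM in KG-1a and under 5 TPM in every other library, while CD47 spans 15.4 to 78.6 TPM over all 12.

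The lines differed in all 10 members by edgeR's overall F test with Benjamini-Hochberg adjustment, in which 72.6% of all genes passed. Neither this count nor those for single pairs of lines can stand as support, because CD96, HAVCR2 and KIT reached the count filter mostly through the lines where they were high. CD34 reached it in 3 of 3 libraries of KG-1a and of MV4-11, but in only 1 each of MOLM-14 and OCI-AML3. In single pairs of lines, 9 of 10 members passed between MOLM-14 and KG-1a (52.7% of all genes), 8 between OCI-AML3 and KG-1a (51.5%), 7 between MV4-11 and KG-1a (47.4%), 7 between OCI-AML3 and MV4-11 (40.7%), 6 between MOLM-14 and MV4-11 (37.1%) and 3 between MOLM-14 and OCI-AML3 (33.6%). The last share is close to that of all genes.

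Among the stem and progenitor markers, CD34 is a sialomucin of stem and progenitor cells (chr1:207880972-207911402, minus strand; all coordinates are GRCh38, GENCODE 29). Its level in KG-1a was 237 TPM with DMSO, 154 TPM with pioglitazone and 213 TPM with darglitazone (201 ± 42.4, mean ± SD, n = 3). Outside KG-1a the highest libraries were OCI-AML3 with pioglitazone at 3.58 TPM, from 9 counts, and MV4-11 with darglitazone at 1.01 TPM, from 114 counts, while the other 7 lay between 0.0116 and 0.466 TPM. KG-1a therefore stood apart from all other libraries. The fitted log2 difference of MOLM-14 from KG-1a was -10.13 (SE 1.04), that of OCI-AML3 -11.31 and that of MV4-11 -8.34. CD34 reached the filter level in 3 of 3 libraries of KG-1a and of MV4-11, and in 1 each of MOLM-14 and OCI-AML3. These differences are therefore descriptions. Among the lower 3 lines no pair passed by edgeR, with adjusted p-values of 0.121 to 0.615. The level at the shares of line-specific genes was 12.8 CPM in the OCI-AML3 pioglitazone library, where 7.87 CPM were measured, and 4.41 CPM in the MV4-11 darglitazone library, where 3.47 CPM were measured. Over the 9 libraries outside KG-1a the measured CD34 level was 0.101 to 1.01 times the level from those shares. Relative to KG-1a, CD34 in those lines thus stood near or below the level of KG-1a-specific genes.

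CD34 has 2 coding forms that differ in the intracellular tail. The sequences across the junction of exons 7 and 8 are shown because the estimated counts of KG-1a fell mostly on the form with the short tail. Capitals mark exon 8, which in CD34-202 starts 195 bases upstream (chr1:207887924-207888118) and soon meets a stop codon, the last 3 bases shown. The coding sequence is 1155 bases in CD34-201 and 984 in CD34-202.
CD34-201, chr1:207888682-207888701 to chr1:207887904-207887923, minus strand: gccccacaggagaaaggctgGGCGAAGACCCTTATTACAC
CD34-202, chr1:207888682-207888701 to chr1:207888104-207888118, minus strand: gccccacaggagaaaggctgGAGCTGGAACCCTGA
In KG-1a the short-tail form held 82.6%, 83.9% and 84.1% of the counts of these forms with DMSO, pioglitazone and darglitazone (83.5% ± 0.8). The treatments thus lay close together in this share. Scaled by transcript length, the short-tail form held 93.5% ± 0.4. In the MV4-11 darglitazone library, with 114 counts of CD34, it held 56.8% of the counts, and 79.0% scaled by length. Why this library differed from KG-1a was not tested.

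KIT, the receptor of stem cell factor (chr4:54657918-54740715, plus strand), was a low gene in every line. Its level was 2.59, 1.20 and 1.15 TPM in MV4-11 and 1.03, 1.97 and 5.41 TPM in KG-1a with DMSO, pioglitazone and darglitazone. It was 0.506, 0.309 and 0.16 TPM in MOLM-14 and 0.0171, 0 and 0.0537 TPM in OCI-AML3. KG-1a and MV4-11 overlapped, and both lay above MOLM-14, which lay above OCI-AML3. KIT in MV4-11 and KG-1a did not differ beyond the spread (log2 difference -1.17, 95% interval -2.45 to 0.11, adjusted p = 0.124). MOLM-14 was lower than MV4-11 by a log2 difference of -2.16 and higher than OCI-AML3 by 2.75. KIT reached the filter level in 3 of 3 libraries of MV4-11 and of KG-1a, in 1 of MOLM-14 and in 0 of OCI-AML3. Its differences between lines are therefore descriptions. No library held more than 132 counts of KIT, so the order of the lower lines rests on few reads. Its level in MOLM-14 was 18.5 to 47.9 times the level at the shares of line-specific genes, and in OCI-AML3, with 5, 0 and 5 counts, 2.59, 0 and 13.6 times.

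KIT is made with or without 12 bases at the end of exon 9 (chr4:54726039-54726050), which leaves the reading frame intact, with coding sequences of 2928 and 2916 bases. The sequences are shown because both forms took part of the counts where KIT could be split. Capitals mark the 12 bases.
KIT-201, chr4:54726019-54726050 to chr4:54727218-54727237, plus strand: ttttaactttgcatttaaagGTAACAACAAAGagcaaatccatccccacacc
KIT-202, chr4:54726019-54726038 to chr4:54727218-54727237, plus strand: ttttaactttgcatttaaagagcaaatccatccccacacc
The form without the 12 bases held 56.0% in the MV4-11 DMSO library, 67.1% in the MV4-11 darglitazone library and 51.7% in the KG-1a pioglitazone library. The other libraries had fewer than 50 counts of KIT. With a minimum of 20 counts, which takes in all libraries of KG-1a, the mean share there was 28.9%. Scaled by transcript length at the minimum of 50 counts, the share was 70.4% ± 6.9 in MV4-11 (n = 2) and 61.5% in the KG-1a pioglitazone library.

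CD38, an enzyme that consumes NAD and the target of daratumumab (chr4:15778275-15853230, plus strand), ranked the lines in another order. In OCI-AML3 it stood at 29.1, 13.0 and 23.6 TPM with DMSO, pioglitazone and darglitazone, and in MOLM-14 at 8.07, 10.2 and 8.72 TPM. KG-1a had 11.0, 0.871 and 10.1 TPM, and MV4-11 0.487, 0.258 and 0.367 TPM. MV4-11 lay below every library of the other lines, and the KG-1a pioglitazone library lay far below the others of its line. OCI-AML3 exceeded MV4-11 by a log2 difference of 5.30 (SE 0.42, adjusted p = 1.16e-06), and KG-1a exceeded it too (MV4-11 against KG-1a -3.40, adjusted p = 2.73e-05). MOLM-14 and OCI-AML3 did not overlap in TPM, but their difference missed the threshold (-0.88, adjusted p = 0.056). CD38 counts in MV4-11 were 20, 5 and 41, or 1.63, 6.64 and 2.45 times the level at the shares of line-specific genes. In KG-1a they were 37.3 to 109 times that level. The line with the highest CD34 thus held CD38 transcripts as well, and the line with the lowest CD38 was MV4-11. A form without exon 3 of CD38 (136 bases, chr4:15824881-15825016), CD38-202, is annotated for nonsense-mediated decay. Of the counts of CD38-201 and CD38-202, it took 7.0% ± 4.5 in MOLM-14 (n = 3) and 8.3% ± 1.3 in OCI-AML3 (n = 2). It took 0 in the 2 KG-1a libraries that could be split, with 150 and 101 counts of the gene. Scaled by transcript length, the shares of this form were 20.6% ± 12.2 and 24.6% ± 3.0 in the first 2 lines.

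Of the cytokine receptors, FLT3 is the receptor tyrosine kinase targeted by midostaurin and gilteritinib (chr13:28003274-28100592, minus strand). It stood at 107, 165 and 125 TPM in MV4-11, at 76.2, 89.4 and 86.4 TPM in MOLM-14 and at 47, 46.5 and 37.2 TPM in OCI-AML3 with DMSO, pioglitazone and darglitazone. KG-1a had 1.41, 0.133 and 4.49 TPM. In TPM the 4 lines did not overlap. By edgeR, however, the upper 3 lines did not differ beyond the spread, with adjusted p-values of 0.584 for MOLM-14 against MV4-11, 0.308 for MOLM-14 against OCI-AML3 and 0.122 for OCI-AML3 against MV4-11. Each of them exceeded KG-1a, MV4-11 by a log2 difference of 6.16 (SE 0.90, adjusted p = 0.00142) and OCI-AML3 by 4.57 (adjusted p = 0.00426). The KG-1a counts of 36, 6 and 80 gave 4.07, 0.603 and 16.7 CPM, and the level at the shares of line-specific genes was 4.03, 1.22 and 20.6 CPM in the same libraries. FLT3 in KG-1a was thus 0.494 to 1.01 times that level.

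Part of the FLT3 counts fell on FLT3-202, a transcript annotated for nonsense-mediated decay that holds an extra exon of 132 bases (chr13:28025284-28025415). It held 35.7% ± 2.4 in MOLM-14, 37.9% ± 0.9 in MV4-11 and 33.5% ± 12.4 in OCI-AML3 (n = 3 each). In the KG-1a darglitazone library it held 25.9%. The share was steady in MOLM-14 and MV4-11, and in OCI-AML3 it ran from 25% with DMSO to 47.7% in the shallow pioglitazone library.

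IL3RA, the alpha chain of the interleukin 3 receptor known as CD123 (chrX:1336616-1382689, plus strand), varied least between lines among the receptors. It stood at 21.8, 33.4 and 22.3 TPM in MV4-11, 21.7, 20.3 and 16.7 TPM in MOLM-14, 14.1, 8.63 and 7.79 TPM in KG-1a and 8.91, 16.9 and 8.49 TPM in OCI-AML3. The OCI-AML3 pioglitazone value came from 12 counts. All 12 libraries thus lay within 1 order of magnitude. In CPM the line means were 38.0 ± 11.5 in MV4-11, 29.9 ± 2.95 in MOLM-14, 16.9 ± 4.84 in KG-1a and 11.4 ± 1.21 in OCI-AML3 (n = 3 each). Neighbours in this order did not differ beyond the spread for MV4-11 and MOLM-14 (MOLM-14 against MV4-11 -0.34, adjusted p = 0.228) or for KG-1a and OCI-AML3 (OCI-AML3 against KG-1a -0.49, adjusted p = 0.0889), whereas MOLM-14 exceeded KG-1a by 0.83 (adjusted p = 0.00462). The full-length form, IL3RA-201, held 95% to 98.3% of the counts on average in each line.

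Of the myeloid antigens, CD33 is a sialic acid-binding lectin and the target of gemtuzumab ozogamicin (chr19:51225064-51243860, plus strand). It was present in every library. MV4-11 had 131, 123 and 147 TPM with DMSO, pioglitazone and darglitazone, and OCI-AML3 had 67.7, 32.2 and 71.3 TPM. KG-1a had 56.9, 29.9 and 40.1 TPM, and MOLM-14 had 37.3, 40.6 and 43.9 TPM. MV4-11 lay above all other libraries, and the other 3 lines overlapped. MV4-11 exceeded OCI-AML3 by a log2 difference of 1.23 (OCI-AML3 against MV4-11 -1.23, adjusted p = 0.000241), MOLM-14 by 1.52 (MOLM-14 against MV4-11 -1.52, adjusted p = 3.83e-05) and KG-1a by 1.26 (adjusted p = 0.000116). No pair among the other lines passed, with adjusted p-values of 0.303 to 0.897.

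CD33 transcripts with and without exon 2 (381 bases, chr19:51225218-51225598) were both counted. Exon 2 encodes the outer immunoglobulin domain to which gemtuzumab binds, so the junctions of both forms are shown, with exon 2 in capitals. The coding sequence is 1092 bases in CD33-201 and 711 in CD33-203.
CD33-201, chr19:51225136-51225155 to chr19:51225218-51225237, plus strand: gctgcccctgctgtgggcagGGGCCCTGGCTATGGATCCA
CD33-201, chr19:51225579-51225598 to chr19:51225803-51225822, plus strand: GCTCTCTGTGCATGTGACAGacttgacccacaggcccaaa
CD33-203, chr19:51225136-51225155 to chr19:51225803-51225822, plus strand: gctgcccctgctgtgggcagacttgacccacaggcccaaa
The share of counts without exon 2 was 41.4%, 31.2% and 36.7% in MV4-11 with DMSO, pioglitazone and darglitazone (36.4% ± 5.1). In MOLM-14 it was 23.4%, 27.2% and 16.6% (22.4% ± 5.4), and in OCI-AML3 26.2% with DMSO and 34.0% with darglitazone. MV4-11 and MOLM-14 did not overlap. KG-1a gave 33.7% with DMSO, 5.0% with pioglitazone and 6.2% with darglitazone, so that its libraries differed more among themselves than the line means did. The forms without the exon were a minority of these counts in all 11 libraries with at least 50 counts of CD33. Scaled by transcript length, they held 43.9% ± 5.7 in MV4-11, 37.0% ± 5.1 in OCI-AML3 (n = 2), 28.2% ± 6.2 in MOLM-14 and 18.2% ± 18.6 in KG-1a.

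CLEC12A, an inhibitory C-type lectin of myeloid cells also called CLL-1 (chr12:9951316-9995694, plus strand), was highest in OCI-AML3, at 34.9, 16.0 and 23.9 TPM with DMSO, pioglitazone and darglitazone. MV4-11 had 12.1, 5.80 and 10.7 TPM, KG-1a 6.55, 4.04 and 3.39 TPM and MOLM-14 0.105, 1.06 and 0.233 TPM. OCI-AML3 lay above every other library and MOLM-14 below every other library, while MV4-11 and KG-1a overlapped. MOLM-14 was lower than OCI-AML3 by a log2 difference of -6.04 (SE 0.57, adjusted p = 5.79e-06) and lower than KG-1a by -3.95 (adjusted p = 8.31e-05). OCI-AML3 exceeded MV4-11 by 1.36 (adjusted p = 0.0211), and MV4-11 and KG-1a did not differ beyond the spread (0.73, 95% interval -0.23 to 1.69, adjusted p = 0.2). MOLM-14 had 3, 21 and 3 counts, or 2.19 to 24.3 times the level at the shares of line-specific genes. CLEC12A was the member by which MOLM-14 differed most from MV4-11, the other line with a KMT2A fusion (-4.67, adjusted p = 3.73e-05).

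Of the antigens with partners on other cells, CD47 binds SIRPA on phagocytes and inhibits engulfment (chr3:108043094-108091862, minus strand). Its CPM were 344, 91.0 and 181 in MV4-11 and 206, 110 and 302.5 in KG-1a with DMSO, pioglitazone and darglitazone. They were 64.8, 71.7 and 50.7 in OCI-AML3 and 52.6, 48.9 and 56.6 in MOLM-14. MV4-11 and KG-1a lay above OCI-AML3 and MOLM-14 in every library on this scale. In TPM the line means kept that order, from 47.1 ± 29.4 in MV4-11 and 44.5 ± 14.5 in KG-1a to 29.3 ± 9.54 in OCI-AML3 and 16.5 ± 1.04 in MOLM-14, but the pioglitazone libraries overlapped those lines, with MV4-11 at 20.4 TPM, just below the OCI-AML3 libraries, and KG-1a at 31.8 TPM, among them. MV4-11 and KG-1a did not differ beyond the spread (-0.06, 95% interval -1.05 to 0.94, adjusted p = 0.93), nor did MOLM-14 and OCI-AML3 (-0.18, -1.22 to 0.86, adjusted p = 0.818). OCI-AML3 was lower than MV4-11 by -1.65 (adjusted p = 0.0224) and lower than KG-1a by -1.71 (adjusted p = 0.0152). The form without exons 9 and 10 of CD47, CD47-201, held 87.2% to 100% of the counts of CD47-201 and CD47-202 on average in each line. The lowest library was OCI-AML3 with DMSO, at 63.6%.

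HAVCR2, the inhibitory receptor TIM-3 of T cells and leukaemic stem cells (chr5:157085832-157142869, minus strand), stood at 6.23, 7.98 and 12.9 TPM in KG-1a with DMSO, pioglitazone and darglitazone. MV4-11 had 1.66, 1.57 and 0.756 TPM, MOLM-14 0.288, 0.367 and 0.466 TPM and OCI-AML3 0.126, 0 and 0.112 TPM. The 4 lines did not overlap in TPM. MV4-11 was lower than KG-1a by a log2 difference of -2.93 (SE 0.47) and MOLM-14 lower than MV4-11 by -1.59. HAVCR2 reached the filter level in 3 of 3 libraries of KG-1a and of MV4-11, and in 0 of MOLM-14 and OCI-AML3. Its differences between lines are therefore descriptions. Between MOLM-14 and OCI-AML3 the log2 difference was 1.35 (95% interval 0.08 to 2.62, edgeR adjusted p = 0.0981). That interval excludes 0, but the adjusted p over all genes does not pass. HAVCR2 in MOLM-14 rested on 19, 9 and 6 counts, at 13.0 to 19.2 times the level at the shares of line-specific genes. In OCI-AML3 it rested on 14, 0 and 4 counts, at 8.72, 0 and 9.83 times.

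CD96, a receptor of T and NK cells that binds PVR and has been used as a leukaemic stem cell marker (chr3:111292719-111665750, plus strand), was high in KG-1a, at 92.2, 102 and 98.6 TPM (97.7 ± 5.11). In MOLM-14 it had 0.0174, 0.13 and 0 TPM, in MV4-11 0.26, 0.27 and 0.413 TPM and in OCI-AML3 0.236, 4.43 and 0.236 TPM. The OCI-AML3 pioglitazone value came from 6 counts, and no library outside KG-1a held more than 25. All other libraries were below those of KG-1a. The fitted log2 difference was -10.81 (SE 0.68) for MOLM-14 and -8.58 for MV4-11, sizes that depend on the few counts in the low lines. CD96 reached the filter level in 3 of 3 KG-1a libraries and in 1 of the other 9, so these are descriptions. The level at the shares of line-specific genes was 4.57 CPM in the OCI-AML3 pioglitazone library, where 5.24 CPM were measured. Over the 9 libraries outside KG-1a the measured CD96 level was 0 to 1.15 times that level.

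CD96-201 holds a 48-base exon (chr3:111577502-111577549) that CD96-202 lacks, with coding sequences of 1755 and 1707 bases. The sequence of CD96-201 is shown, with that exon in capitals, because the libraries of KG-1a held forms with and without it.
CD96-201, chr3:111567628-111567647 to chr3:111577502-111577549 to chr3:111579027-111579046, plus strand: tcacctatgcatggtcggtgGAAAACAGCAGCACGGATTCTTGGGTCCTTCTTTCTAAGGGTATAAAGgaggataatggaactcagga
In KG-1a the forms without this exon, CD96-202 and CD96-207, held 24.2%, 33.5% and 28.6% with DMSO, pioglitazone and darglitazone (28.8% ± 4.7). These are shares of the counts of CD96-201, CD96-202 and CD96-207. CD96-207 is annotated for nonsense-mediated decay and held 1094 counts over all 12 libraries, against 384 on CD96-202. Scaled by transcript length, the forms without the exon held 42.0% ± 9.9.

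**Figure D2:**
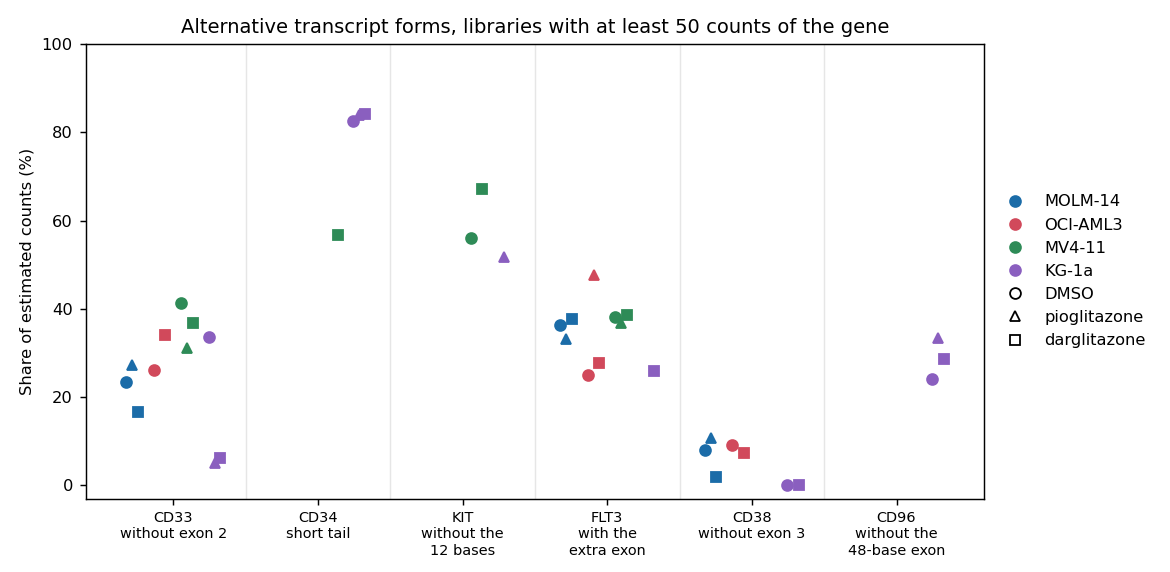
Share of the estimated counts of the compared transcripts of each gene, in percent, on the named alternative form. Every library with at least 50 counts of the gene is shown, with colour for the line and shape for the treatment. Other transcripts of the gene are left out of the share. The short-tail form of CD34 lies at 82.6% to 84.1% in KG-1a and at 56.8% in MV4-11 with darglitazone. The CD33 form without exon 2 lies at 5.0% to 41.4% over 11 libraries, and the CD38 form without exon 3 at 0 in KG-1a.

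**Figure D3:**
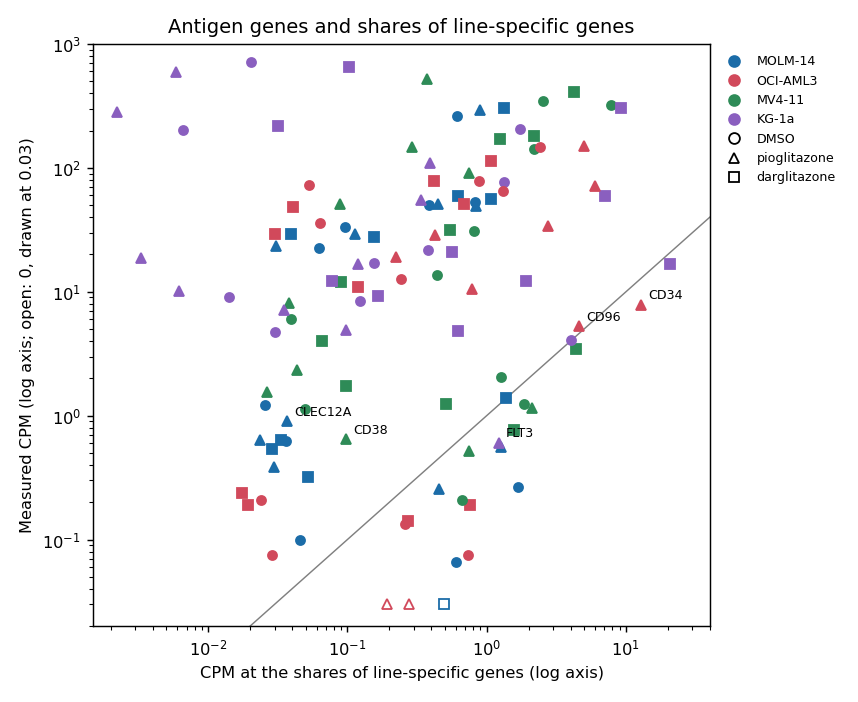
Measured CPM of each member in each library (y axis, log scale, open symbols at 0.03 for libraries at 0) against its CPM at the shares of line-specific genes (x axis, log scale), with a line where both are equal. The 21 values of CD34 and CD96 outside KG-1a and of FLT3 in KG-1a lie at 0 to 1.15 times that line, and CD38 and CLEC12A, marked in their lowest lines, lie above it.

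With the drugs, 0 of 10 members passed edgeR's test at an adjusted p of 0.05 in any contrast, and neither did any other gene. The share of all genes that passed was 0% for pioglitazone against DMSO, 0% for darglitazone against DMSO and 0% for darglitazone against pioglitazone. At an unadjusted p under 0.05, 1 member (CD38) stood in the first contrast, where 5.96% of all genes did, 0 in the second (3.4%) and 1 (CD38 again) in the third (3.51%). The member shares are close to those of all genes. By DESeq2 0 members passed in each contrast, where 0.48%, 0.0389% and 0.0778% of all genes did. That count takes in members without an adjusted p, which could not pass, such as CD38 with pioglitazone and between the drugs. By limma-voom 0 members passed in each contrast, where 0%, 0.0389% and 0% of all genes did. The median log2 fold change over the members was -0.06 with pioglitazone and 0.02 with darglitazone, against -0.02 and 0.01 over all genes, and 5 and 6 of 10 members were above 0. All values for the drugs below are therefore descriptions of changes that did not pass. Both drugs were set against the same DMSO libraries, so their changes are not independent of each other.

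CD38 showed the lowest p with pioglitazone. In CPM it went from 72.7 with DMSO to 28.8 with pioglitazone in OCI-AML3 (33 counts), from 2.07 to 0.646 in MV4-11 (20 and 5 counts), from 16.9 to 4.93 in KG-1a (150 and 49 counts) and from 22.4 to 23.4 in MOLM-14. It was lower in 3 lines and level in MOLM-14. The log2 fold change was -0.99 (SE 0.32, 95% interval -1.68 to -0.29, unadjusted p = 0.00943, adjusted p = 0.735). The interval excludes 0, but the adjusted p over all genes does not pass. With darglitazone CD38 had 48.3 CPM in OCI-AML3, 1.25 in MV4-11, 21.1 in KG-1a and 29.2 in MOLM-14, a log2 fold change of -0.11 (95% interval -0.75 to 0.53, adjusted p = 1). Leaving out the pioglitazone libraries of KG-1a (richest in the ribosomal entry) and OCI-AML3 (shallowest) gave -0.37, leaving out that of KG-1a alone -0.65, and leaving out that of MOLM-14 -1.54 (adjusted p = 0.0947). Without a filter on low counts CD38 passed (-1.07, adjusted p = 0.00184), among 0.638% of 34975 genes. By DESeq2 the value was -1.04 with no adjusted p. All 10 myeloid markers also had values below 0 with pioglitazone, at a median log2 fold change of -0.55 and with 0 of 10 past the threshold, and their part in the CD38 value was not tested.

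CD47 had the next largest negative value with pioglitazone. It went from 344 to 91.0 CPM in MV4-11 and from 206 to 110 CPM in KG-1a, and stood at 52.6 and 48.9 CPM in MOLM-14 and at 64.8 and 71.7 CPM in OCI-AML3. The difference was thus in the lines with the higher CD47. The log2 fold change was -0.73 (SE 0.39, 95% interval -1.63 to 0.17, adjusted p = 0.893), and without the MV4-11 DMSO library it was -0.38. Without the low-count filter CD47 passed as well (-0.78, adjusted p = 0.000974). With darglitazone the value was -0.17 (95% interval -1.03 to 0.70), with single-line log2 ratios of -0.93 in MV4-11 and 0.56 in KG-1a. The signs of these lines were thus opposite.

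CD33 and IL3RA gave the narrowest intervals. CD33 had -0.31 with pioglitazone (95% interval -0.68 to 0.06) and 0.04 with darglitazone (-0.32 to 0.40). In OCI-AML3 its pioglitazone library had 34.1 CPM from 39 counts, against 78.9 with DMSO and 79.0 with darglitazone. IL3RA had 0.02 with pioglitazone (95% interval -0.39 to 0.43) and -0.33 with darglitazone (-0.72 to 0.07), lower in 3 of 4 lines in both. For these genes the intervals of the fit over 4 lines exclude a log2 change of 1 in either direction by either drug. They do not exclude it in a single line, and the CD33 log2 ratio in OCI-AML3 with pioglitazone was -1.21.

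FLT3, CD34 and CD96 gave the widest intervals. FLT3 had 0.09 with pioglitazone (95% interval -1.39 to 1.58) and 0.48 with darglitazone (-1.05 to 2.02). Its outlying single-line ratios, -2.56 and 2.01, were both in KG-1a, where it was 0.494 to 1.01 times the level at the shares of line-specific genes. CD34 had 0.34 (-1.70 to 2.39) and 0.75 (-1.19 to 2.70). In KG-1a, the line that expresses CD34, it went from 713 CPM with DMSO to 598 with pioglitazone and 647.5 with darglitazone. CD96 had 0.88 (-0.43 to 2.18) with pioglitazone, where its OCI-AML3 ratio of 4.48 rested on 6 counts, and 0.34 (-0.88 to 1.57) with darglitazone. In KG-1a CD96 had 202, 281 and 217 CPM. These genes therefore inform on the drugs in KG-1a (CD34, CD96) or in the other 3 lines (FLT3).

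KIT, CLEC12A and HAVCR2 also spread around 0. KIT had -0.43 with pioglitazone (95% interval -1.68 to 0.83) and 0.01 with darglitazone (-0.77 to 0.78). In KG-1a its counts were 42, 101 and 44 and its CPM 4.74, 10.2 and 9.19 with DMSO, pioglitazone and darglitazone, and in MV4-11 its CPM were 6.0, 1.55 and 4.02, so the lines differed in direction. CLEC12A had -0.14 (-1.05 to 0.77) and -0.21 (-1.07 to 0.65), and HAVCR2 0.46 (-0.52 to 1.45) and 0.22 (-0.71 to 1.15). A test of whether the mean response to both drugs differed between lines called 0 of 10 members, against 0.00648% of all genes. At an unadjusted p under 0.05 it held 1 member, CLEC12A (edgeR adjusted p = 1), and 3.05% of all genes.

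**Figure D4:**
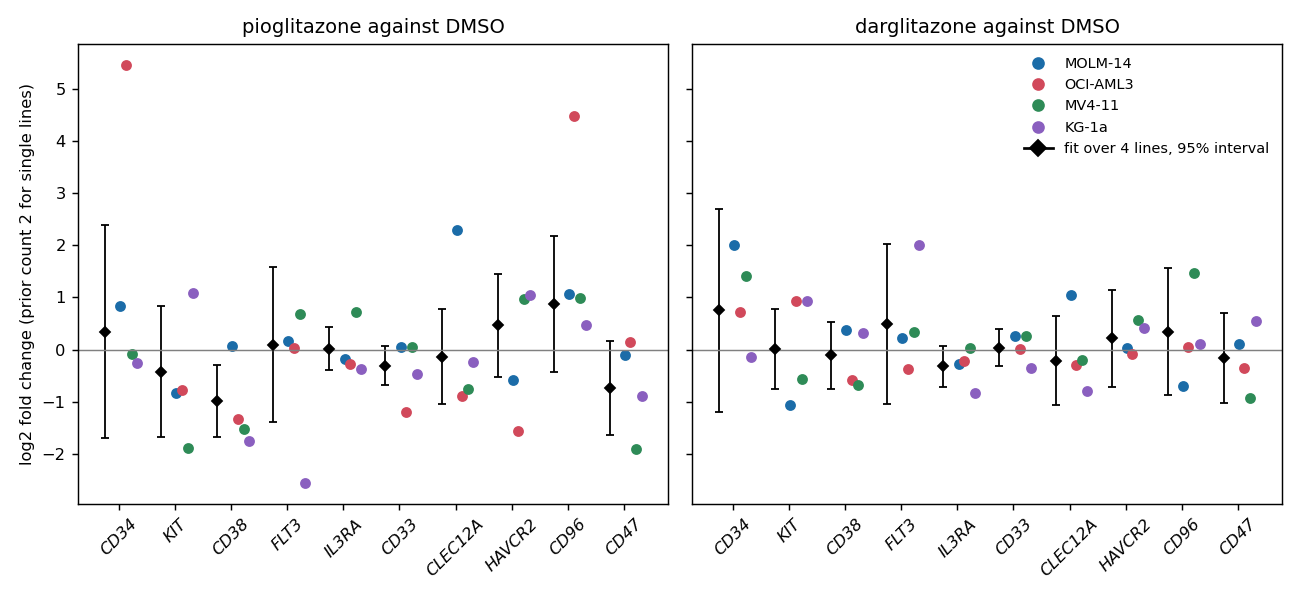
Log2 fold change of each antigen gene with pioglitazone (left) and darglitazone (right) against DMSO. Black diamonds and bars show the fit over 4 lines with its 95% interval, and coloured points show single lines, computed with a prior count of 2. The CD38 interval with pioglitazone, -1.68 to -0.29, is the only one of the 20 that excludes 0, and the points at 5.46 (CD34) and 4.48 (CD96) are OCI-AML3 with 9 and 6 counts.

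The drugs, both thiazolidinediones at the same dose and time, were compared directly as 1 pair, with p-values adjusted over all genes. CD38 was higher with darglitazone than with pioglitazone in 4 of 4 lines, with single-line log2 ratios of 2.08 in KG-1a, 0.85 in MV4-11, 0.74 in OCI-AML3 and 0.32 in MOLM-14. The log2 difference was 0.88 (SE 0.32, 95% interval 0.19 to 1.56, unadjusted p = 0.0167, adjusted p = 0.98), which does not pass. It was 0.26 without the pioglitazone libraries of KG-1a and OCI-AML3, 0.53 without the KG-1a pioglitazone library and 1.43 without the MOLM-14 pioglitazone library. CD33 was also higher in 4 of 4 lines, by 0.35 (95% interval -0.02 to 0.72, adjusted p = 0.98). For the others the log2 difference was 0.56 for CD47 (-0.34 to 1.46), and it did not pass for IL3RA at -0.34 (-0.76 to 0.07), FLT3 at 0.39 (-1.16 to 1.94), CD34 at 0.41 (-1.73 to 2.55), KIT at 0.43 (-0.83 to 1.70), CLEC12A at -0.07 (-0.99 to 0.85), HAVCR2 at -0.24 (-1.22 to 0.73) and CD96 at -0.53 (-1.86 to 0.79). The member median was 0.37 against 0.03 over all genes. Intervals this wide do not show that the drugs act alike.

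Among the 18 ligands and partners of these antigens, 14 were tested and 11 differed between lines, beside 72.6% of all genes. As for the members, such counts cannot stand as support, here or for the lists below. Genes high in 1 line could reach the count filter through that line. SIRPA, the receptor of CD47, had mean levels of 0.902 TPM in KG-1a, 31.8 TPM in MV4-11, 40.7 TPM in MOLM-14 and 50.7 TPM in OCI-AML3. CSF2RB, the beta chain that pairs with IL3RA, was highest in KG-1a at 56.1 TPM and lowest in MOLM-14 at 4.0 TPM, an order unlike that of IL3RA. CD226, which competes with CD96 for PVR, was 17.3 TPM in KG-1a and at most 1.13 TPM elsewhere. PECAM1, a partner of CD38, was 51.5 TPM in MV4-11, the line with the least CD38. Ligand genes of the growth factor receptors were low. KITLG had 2.94 TPM in MOLM-14 and 0 counts in KG-1a, IL3 had 0 counts in all 12 libraries, and FLT3LG stood at 1.20 to 3.40 TPM without a difference between lines (edgeR adjusted p = 0.204). LGALS9, a ligand of HAVCR2, was high in every line, at 75.8 to 224 TPM.

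Of 30 other surface targets, 26 were tested and all 26 differed between lines, again beside 72.6% of all genes. The 4 with the largest F were CD244 (54.3 TPM in KG-1a and at most 9.30 elsewhere), CD82 (141 TPM in KG-1a, at most 27.4 elsewhere), CD93 and ANPEP (55.0 TPM in KG-1a, at most 1.38 elsewhere). CD93, a surface lectin of progenitor cells, was highest in OCI-AML3 at 53.6 TPM and lowest in MV4-11 at 1.97 TPM, the same lines as for CD38. The stem cell antigens PROM1 and THY1 had at most 5 and 1 counts in any library. All 8 tested of 11 related receptors differed between lines, beside the same 72.6%. Neither this count nor that of the surface targets can stand as support. CSF1R, the monocyte growth factor receptor of the FLT3 and KIT family, reached 20.1 TPM in MV4-11 and 0.441 TPM in KG-1a, CSF2RA was highest in OCI-AML3 at 38.7 TPM, CSF3R ran from 21.9 TPM in MOLM-14 to 59.3 TPM in KG-1a, and EPOR from 3.14 TPM in KG-1a to 9.88 TPM in MOLM-14.

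CD34 is also 1 of the genes of a 17-gene stemness score, and 15 of the other 16 genes differed between lines, beside 72.6% of all genes. SMIM24, DNMT3B and NYNRIN were highest in KG-1a, at 179, 53.2 and 26.0 TPM, against at most 1.85, 7.40 and 0.194 TPM elsewhere. LAPTM4B was 117 TPM in KG-1a and 71.3 TPM in MOLM-14, where CD34 was low. Of 14 transcription factors of stem and progenitor cells, 13 were tested and all 13 differed between lines, beside the same 72.6%. These counts are no support either. Genes such as ERG and GFI1B were low in all lines but KG-1a and reached the filter mostly through it. ERG, GFI1B and GATA2 stood at 61.7, 48.5 and 198 TPM in KG-1a, and at no more than 0.415, 0.308 and 23.2 TPM in the other lines. Other genes of the same lists had other orders. SOCS2 was 6.92 TPM in KG-1a and 91.6 TPM in MOLM-14, BEX3 0.146 TPM in KG-1a and 23.4 TPM in MV4-11, MMRN1 5.12 TPM in KG-1a and 28.1 TPM in OCI-AML3, and AKR1C3 and DPYSL3 were lowest in KG-1a. MYB and CEBPA were lowest in KG-1a too, at 66.7 and 24.9 TPM, against up to 170 and 203 TPM elsewhere. KG-1a held the highest mean of 8 of the 16 score genes and of 7 of the 13 tested transcription factors. No gene of these 5 lists passed in a drug contrast. The lowest p among them with pioglitazone was that of CEBPA, a myeloid transcription factor, at a log2 fold change of -0.56 (lower in 4 of 4 lines, adjusted p = 0.735). CXCR4 and CD93 had -0.53 (adjusted p = 0.8) and -0.48 (adjusted p = 0.806), both lower in 4 of 4 lines. With darglitazone the lowest p was that of SIGLEC6, at 0.93 (higher in 4 of 4 lines). Between the drugs it was that of CXCR4, at 0.5 (higher with darglitazone in 3 of 4 lines, edgeR adjusted p = 0.98).

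The genes most like each member over the 12 libraries are named by Pearson's r of log2 CPM. The libraries fall into 4 lines and share low-count noise, so r describes mainly the order of the lines and has no p. For FLT3 these were KBTBD11 (0.996) and FBXO25 (0.993), for CD96 IL32 (0.994) and TBC1D10C (0.981), for HAVCR2 MYL12B (0.991) and JAK1 (0.986), and for CD34 SP100 (0.981) and IL32 (0.978). CD33 was most like COQ8B (0.98), IL3RA most like PET100 (0.974), KIT most like MROH1 and MAGEF1 (0.965 each) and CD38 most like CD93 (0.964). CLEC12A followed SRSF8 (0.957), and CD47 had the least similar first neighbour, FAM76A (0.921). Among the members, CD34 and CD96 had the highest r (0.971), and FLT3 and CD96 a negative value of -0.884.

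Since both drugs act on PPARγ, the RefSeq promoters (GRCh38.p14, 300 bases around the start) of 9 members were searched on both strands. The direct repeat of AGGTCA with any 1 base between was in 0 of 9, and in 0.023% of 35116 promoters. The single unit AGGTCA, which the repeat contains, was in 1 of 9 (CD47), against 13.8% of all promoters. These are matches of letters and say nothing of binding.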

How the data were processed

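The deposited table holds estimated counts per transcript for 12 libraries, without normalization, and 89.8% of its values above 0 were not whole (tolerance 1e-06). Per the labels' protocols, libraries were stranded total RNA depleted of ribosomal RNA. The submitters' processing notes name GRCh38 and the tools STAR, featureCounts, fastp, FastQC and DESeq2. Which tool estimated the transcript counts is not stated there. Such estimates divide reads between similar transcripts, which makes shares of transcript forms uncertain.

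Counts of 202941 of 203027 transcripts were summed to 57865 genes by GENCODE 29, and the 86 unmatched transcripts (at most 0.0169% of a library) were left out. Gene sums were rounded to whole numbers. filterByExpr (minimum count 10, minimum total 15, cell line as group) kept 15424 genes. They were tested with edgeR 4.0.16 by the robust quasi-likelihood F test with TMM scaling, cell line and treatment as terms and 6 residual degrees of freedom (3 in the test of response by line). Benjamini-Hochberg adjustment ran over all tested genes, and the threshold was 0.05. The test was first tested on simulated data. Single-line ratios use a prior count of 2. TPM were computed from the estimated counts and the annotated transcript lengths. Sequences are from GRCh38 at GENCODE 29 coordinates, and promoters from RefSeq.

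Group and replicate come from the treatment and the cell line in the labels. The line pairs the libraries by design, with 1 library of each line per treatment. After removal of treatment means, libraries of the same line correlated across genes at 0.6 to 0.85 (12 pairs). Those of different lines correlated at -0.53 to -0.04 (54 pairs). Removing these means in itself pushes correlations between different lines below 0, so the contrast is no test of the pairing.

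Genes specific to a line were autosomal protein-coding genes, members left out, with a minimum of 30 CPM in that line's libraries and at most 5% of that in the others. A condition added after seeing the data asked for under 1% in the lowest receiving library. The level of a member at these shares is the sum, over the other lines, of the median share times the member's mean CPM there. Shares of transcript forms needed at least 50 counts of the gene. They are shares of the counts of the compared transcripts, and any other annotated transcripts of the gene were left out.

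The text names all members and up to 4 genes per list with the largest F over lines. It also names some of the list genes with the lowest p in each drug contrast. The genes of highest r per member (mean log2 CPM at least 2) are named too. Other genes and counts beside them were chosen after their values were seen. Members and lists were chosen with earlier results of these data known. Alternatives were DESeq2 1.42.0, limma-voom (limma 3.58.1, R 4.3.3), RLE scaling, no filter and a stricter filter (1 CPM), no cell line term, thinning to the shallowest library, removal of FP671120.3, removal of single libraries and of pairs of libraries, 20 counts for transcript forms, and their shares scaled by length.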

Additional observations from a re-analysis of the deposited data

Results flagged for a closer look

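In 4 of 60 groups of 4 values, 1 library or line stood far from the other 3, and chance alone marks about 1 in 20 such groups. The CD33 log2 ratio of darglitazone to pioglitazone was 1.21 in OCI-AML3, far above the other lines. The FLT3 log2 ratio of darglitazone to pioglitazone was 4.57 in KG-1a, from 80 and 6 counts. The CD96 log2 ratio of pioglitazone to DMSO was 4.48 in OCI-AML3, from 6 and 9 counts in libraries of very different depth. The level of CD96 with DMSO was 7.66 (log2 CPM) in KG-1a, far above the other lines.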

How the results depend on the processing

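Of 657 recomputed drug fold changes of the members, 598 kept their direction and their side of the threshold, 57 changed sign and 2 newly passed. Fold changes without an adjusted p, such as CD38 with pioglitazone by DESeq2, were counted as not past the threshold. The ones that newly passed were CD38 (-1.07) and CD47 (-0.78) with pioglitazone without a low-count filter, where the members called rose from 0 to 2. For each value below the cause was not tested.

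In pioglitazone against DMSO, the sign changed to 0.05 for CLEC12A by DESeq2, to -0.15 for CD34 and 0.08 for KIT by limma-voom, and to -0.03 for IL3RA without the filter. Without the pioglitazone libraries of KG-1a and OCI-AML3 CD34 had -0.33 and CLEC12A 0.14, and without the OCI-AML3 pioglitazone and KG-1a darglitazone libraries CD34 had -0.06, FLT3 -0.01 and CLEC12A 0.04. In darglitazone against DMSO it changed without the filter to -0.02 for CD33 and -0.04 for KIT, on thinning to 0.08 for CD38, and without the latter libraries to -0.07 for FLT3. Between the drugs it changed to -0.62 for CD34 by DESeq2, to -0.14 for FLT3 and 0.2 for CLEC12A by limma-voom, and on thinning to -0.15 for CD34, -0.08 for FLT3 and 0.44 for CLEC12A. Without the first pair of libraries FLT3 had -0.14 and HAVCR2 0.02, and without the second FLT3 had -0.06 and CD96 0.1.

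With no replicate block (the cell line left out of the paired model), 0 members were called in each drug contrast, as with it. There CD34 had -0.23 and KIT 0.1 with pioglitazone, CD34 -0.13 with darglitazone, and FLT3 -0.19 and CLEC12A 0.45 between the drugs.

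Leaving out each library in turn gave, with pioglitazone, -0.04 to 1.58 for CD34, -1.04 to 0.08 for KIT, -0.23 to 0.44 for FLT3, -0.21 to 0.17 for IL3RA, -0.55 to 0.11 for CLEC12A and -1.54 to -0.65 for CD38. With darglitazone it gave -0.07 to 0.15 for CD33, -0.42 to 0.09 for CD38, -0.48 to 0.21 for CD47, -0.4 to 0.52 for KIT and -0.1 to 0.77 for FLT3. Between the drugs it gave -0.35 to 0.28 for CLEC12A, -0.07 to 0.72 for FLT3, -0.58 to 0.09 for HAVCR2, -0.05 to 1.18 for KIT and 0.53 to 1.43 for CD38. The members called between MOLM-14 and OCI-AML3 were 3, and 6 by limma-voom (47.6% of all genes), 5 without the filter (14.2%), 5 without either pair of libraries (29.8% and 29.9%) and 2 to 5 without single libraries. Between MOLM-14 and MV4-11 they were 6, and 3 to 8 without single libraries (3 without the MOLM-14 darglitazone library). Few counts limit CD34, CD96, KIT and HAVCR2 in the lines where they were low, also in the deepest library, which held 5, 9, 5 and 14 counts of them.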
